A study of Mus musculus with 22 samples.

Results

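The genes described here are the protein-coding genes of mouse chromosome 15 (mm10) that reached a mean of 1 FPKM or more over the 9 control libraries, where FPKM stands for fragments per kilobase of gene in proportion to all fragments of the library. Of 765 protein-coding genes of the chromosome in the deposited tables, 402 were below that level, 166 of them at 0 in all controls, and 16 were left out by symbol. The 16 were Bop1, Itgb7 and Nr4a1 and 13 genes whose symbols begin with Ly6, Rpl, Rps, Nduf, Cox or Atp5. The remaining 347 genes are called members. Myc, Il7r and Il2rb, also left out by name, lay below 1 FPKM in the controls. The members just inside the level rule were Cpq, Ndrg1 and Amacr at 1.02, 1.03 and 1.06 FPKM, and the genes just outside were Il7r, Adck5 and Rida at 0.983, 0.954 and 0.947 FPKM. The chromosome itself was singled out because its genes stood high in knockout libraries of this series, so its level there is given as a description, with no test.

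The libraries held RNA of thymocytes sorted as CD45.1+ CD4+CD8+, that is, double-positive cells, in which T cell precursors rearrange the alpha chain of their receptor. E2a is encoded by Tcf3, and all groups carried E2aF/F, a Tcf3 allele that Cre recombinase can delete. The groups at 4 weeks of age were E2aF/F controls and VavCre E2aF/F knockouts (3 libraries each), and E2aF/F controls and LckCre E2aF/F knockouts (3 libraries each). At 8 weeks they were E2aF/F controls (3 libraries), VavCre E2aF/F knockouts (3 libraries) and VavCre E2aF/F mice given bone marrow of WT mice (4 libraries, called transplanted here), which the design text describes as sublethally irradiated first. The labels do not say whether the cells sorted from transplanted mice came from the host or from the donor marrow. VavCre acts in all blood lineages from their stem cells onward, whereas LckCre acts from early thymocytes. The labels name no animals, so errors and p-values measure the spread between libraries.

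Tcf3 lay between 6.39 and 8.22 FPKM in the 9 controls and between 1.15 and 2.32 FPKM in the 13 knockout and transplanted libraries. In the transplanted libraries alone it ran from 1.21 to 2.32 FPKM. The other 8-week groups had 1.23 to 2.13 FPKM in the Vav knockout and 7.49 to 7.59 FPKM in the controls. The origin of the cells in the transplanted libraries was not tested. The 8 double-positive markers Cd4, Cd8a, Cd8b1, Rag1, Rag2, Ptcra, Dntt and Cd3e were present in every group, with a summed level of 4097 to 4481 FPKM in the controls. That sum was 3026 to 3611 FPKM in the Vav knockout at 4 weeks, 3816 to 4074 in the Lck knockout, 2011 to 2255 in the Vav knockout at 8 weeks and 1254 to 2884 in the transplanted libraries. The 4 macrophage and granulocyte markers summed to at most 3.33 FPKM in controls and 8.89 in the Vav knockout at 8 weeks. In the transplanted libraries they reached 20.5 in replicate 3, with a group median of 4.03. That library also had the highest double-positive sum of its group. The 3 erythroid markers summed to 13.7 to 30.3 FPKM in the 8-week controls and 26.6 to 72.4 in the transplanted libraries, and the 3 B cell markers to at most 1.14 anywhere. The 3 stromal markers summed to at most 5.71 FPKM, the 2 natural killer cell markers to at most 1.24 and the 2 dendritic cell markers to at most 0.643. The part of these differences in the results below was not tested. Depth, inferred from the lowest values, ran from 5.47 to 37.3 M (mega) reads in single libraries.

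The dose of a gene is the number of its copies in a cell, and RNA levels of most genes follow dose at least in part, although feedback on single genes can hide or exceed it. Gains of whole chromosome 15, the home of Myc, are recurrent in mouse T cell lymphoma, a setting in which Myc drives growth. E2a is an E protein, a transcription factor that binds short DNA motifs called E boxes. No DNA was measured in the files used here, so copy number is unknown. In RNA from a bulk of cells, a change in a fraction of the cells and a smaller change in all of them cannot be told apart.

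For each member and library, the log2 ratio to the mean of the control libraries of the same table was taken with 0.1 FPKM added, and centred on the median of 8236 genes of the 18 other autosomes chosen by the same rule. A control library was set against the mean of the other controls of its table. The median over members is called the level of chromosome 15 in that library. A gene at a dose of 3 copies in place of 2, with RNA in proportion, would have a ratio of 1.5, or 0.58 on the log2 scale.

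Promoter windows are shown for the members farthest from the chromosome's level in the Vav knockout at 4 weeks, the setting with the deepest libraries. Cyth4 and Pced1b were the farthest above, and Itga5 and Odf3b the farthest below. Each runs from 250 bases before to 50 after the gene's RefSeq start (GRCm38.p6), and capitals mark the E box motifs named next. Other E box sequences were not searched and are not marked. The letters searched were CAGCTG, which reads alike on both strands, and the related motif CAGGTG, whose other strand reads in turn as CACCTG. The windows are chr15:78596797-78597096 on the plus strand for Cyth4, chr15:97246857-97247156 on the plus strand for Pced1b, chr15:103366742-103367041 on the minus strand for Itga5 and chr15:89379205-89379504 on the minus strand for Odf3b.
Cyth4: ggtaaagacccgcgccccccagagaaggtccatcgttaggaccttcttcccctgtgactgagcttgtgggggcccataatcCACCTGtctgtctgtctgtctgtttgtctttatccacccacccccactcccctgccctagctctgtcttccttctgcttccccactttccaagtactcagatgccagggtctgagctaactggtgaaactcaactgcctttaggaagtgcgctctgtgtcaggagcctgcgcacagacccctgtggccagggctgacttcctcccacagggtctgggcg
Pced1b: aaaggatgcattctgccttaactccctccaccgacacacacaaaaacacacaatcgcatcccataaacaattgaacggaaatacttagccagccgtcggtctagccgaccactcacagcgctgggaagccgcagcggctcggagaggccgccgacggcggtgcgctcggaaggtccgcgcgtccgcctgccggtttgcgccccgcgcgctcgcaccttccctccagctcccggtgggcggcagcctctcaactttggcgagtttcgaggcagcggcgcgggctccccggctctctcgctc
Itga5: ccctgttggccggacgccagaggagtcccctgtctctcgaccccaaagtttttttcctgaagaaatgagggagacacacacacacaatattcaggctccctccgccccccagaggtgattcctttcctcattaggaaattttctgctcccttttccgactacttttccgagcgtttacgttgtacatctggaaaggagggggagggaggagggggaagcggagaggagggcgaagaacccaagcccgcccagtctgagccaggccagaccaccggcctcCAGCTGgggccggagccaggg
Odf3b: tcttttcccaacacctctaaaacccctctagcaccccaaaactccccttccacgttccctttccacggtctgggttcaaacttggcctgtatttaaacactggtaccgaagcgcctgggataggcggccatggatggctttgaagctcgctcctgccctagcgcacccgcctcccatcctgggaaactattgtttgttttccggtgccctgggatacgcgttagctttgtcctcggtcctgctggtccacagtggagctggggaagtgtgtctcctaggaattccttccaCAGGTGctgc
Such a motif occurred in 35.9% of the windows of all 27025 genes listed and in 62 of the 196 members with a window (31.6%). Of these 4 genes, Cyth4 and Odf3b had 1 CAGGTG-type motif, Itga5 had 1 CAGCTG and Pced1b had neither. A match of letters is a description and shows no binding.

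At 4 weeks the level of chromosome 15 in the Vav knockout was 0.30, 0.24 and 0.31 in the 3 libraries, or 1.23, 1.18 and 1.24-fold. At 8 weeks it was 0.73, 0.58 and 0.68, or 1.66, 1.49 and 1.6-fold. In the transplanted libraries it was 0.56, 0.59, 0.54 and 0.54, or 1.48, 1.51, 1.45 and 1.45-fold. These 10 libraries all lay above the 9 controls, which ranged from -0.03 to 0.03, and in each of the 10 chromosome 15 had the highest median of the 19 autosomes. Among the 8-week controls it also had the highest median in replicate 3, at 0.03, and the lowest in replicate 2, at -0.03. For the Lck knockout the level was 0.02, 0.01 and -0.01, within the range of the controls. The group means were 0.29 ± 0.04 (SD, n = 3) for the Vav knockout at 4 weeks, 0.66 ± 0.08 (SD, n = 3) at 8 weeks, 0.56 ± 0.02 (SD, n = 4) in the transplanted libraries and 0.00 ± 0.02 (SD, n = 3) in the Lck knockout. The transplanted and untransplanted libraries at 8 weeks overlapped, and the 3 Vav libraries at 4 weeks lay below all 7 at 8 weeks. The 2 ages were compared with different controls, in tables treated as separately normalized. Members made up 3.66% to 3.86% of the summed FPKM in the Vav controls, 4.53% to 4.71% in the Vav knockout at 4 weeks, 5.4% to 6.0% at 8 weeks and 4.73% to 5.46% in the transplanted libraries.

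**Figure D1:**
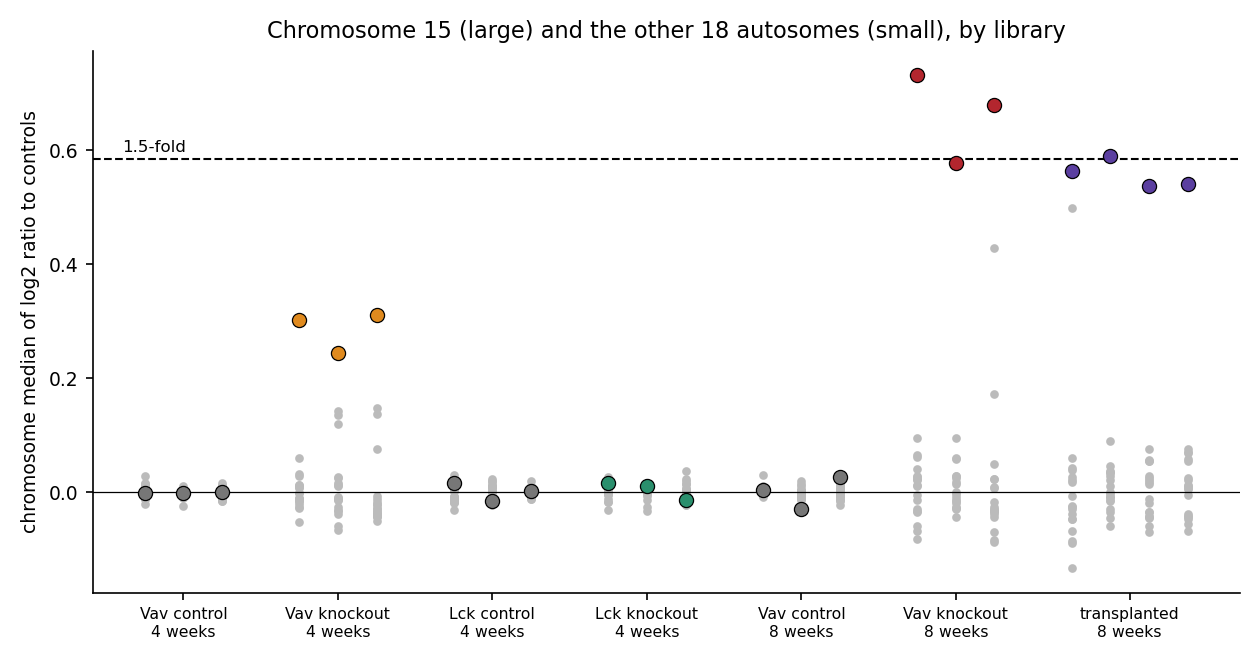
Median log2 ratio to controls of chromosome 15 (large points) and of each of the other 18 autosomes (small grey points), 1 column per library, with 1.5-fold as a dashed line. All 10 Vav knockout and transplanted libraries have chromosome 15 at the top, between 0.24 and 0.73, while the Lck knockout stays between -0.01 and 0.02.

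Most members shared the difference. At 4 weeks 88.5%, 81.3% and 88.5% of the members lay above a ratio of 1 in the 3 Vav knockout libraries, at 8 weeks 89.3%, 87.0% and 87.9%, and in the transplanted libraries 79.5% to 86.7%. The share of other-autosome genes is 50% in each by construction. Of the Lck knockout libraries' members 47.3% to 53.3% lay above 1. A ratio above 1 in all 10 Vav libraries was found for 187 members (53.9%, against 8.88% of other-autosome genes) and a ratio below 1 in all 10 for 3 (0.865%, against 9.54%), namely Itga5, Zhx2 and C730034F03Rik. The members were about as spread around their level as other genes were around theirs: the interquartile range was 0.29 to 0.37 log2 units in the Vav knockout at 4 weeks (0.27 to 0.33 for other autosomes) and 0.70 to 0.79 at 8 weeks (0.64 to 0.74). Within 0.25 of the chromosome's level lay 254 members (73.2%) at 4 weeks, 126 (36.3%) at 8 weeks and 152 (43.8%) in the transplanted group, against 74.5%, 41.0% and 47.9% of other-autosome genes around 0.

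A mean ratio of 1.5-fold or more was reached by 40 of 347 members (11.5%) in the Vav knockout at 4 weeks, against 3.39% of other-autosome genes. At 8 weeks it was reached by 195 (56.2%, against 14.1%), and in the transplanted libraries by 155 (44.7%, against 9.88%). With LckCre 3 members reached it (0.865%, against 0.352%), namely Cyth4, Cpq and Micall1. At or below a mean ratio of 1 were 40 members (11.53%, against 50.02% of other-autosome genes) in the Vav knockout at 4 weeks. The Vav knockout at 8 weeks had 37 (10.66%, against 49.99%) and the transplanted group 45 (12.97%, against 50.83%). A mean ratio of 2-fold or more was found for 8, 95 and 51 members in these groups (2.31%, 27.4% and 14.7%, against 0.862%, 5.28% and 3.76% of other-autosome genes). In all 7 libraries at 8 weeks, 51 members were at 1.5-fold or more (14.7%, against 1.83%) and 197 were above 1 (56.8%, against 1073 of 8236). At the threshold in the Vav knockout at 4 weeks, Eif3e, Adsl and Cct5 lay just above with mean log2 ratios of 0.59, 0.61 and 0.62, and Recql4, Brix1 and Tst just below with 0.58, 0.58 and 0.57.

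**Figure D2:**
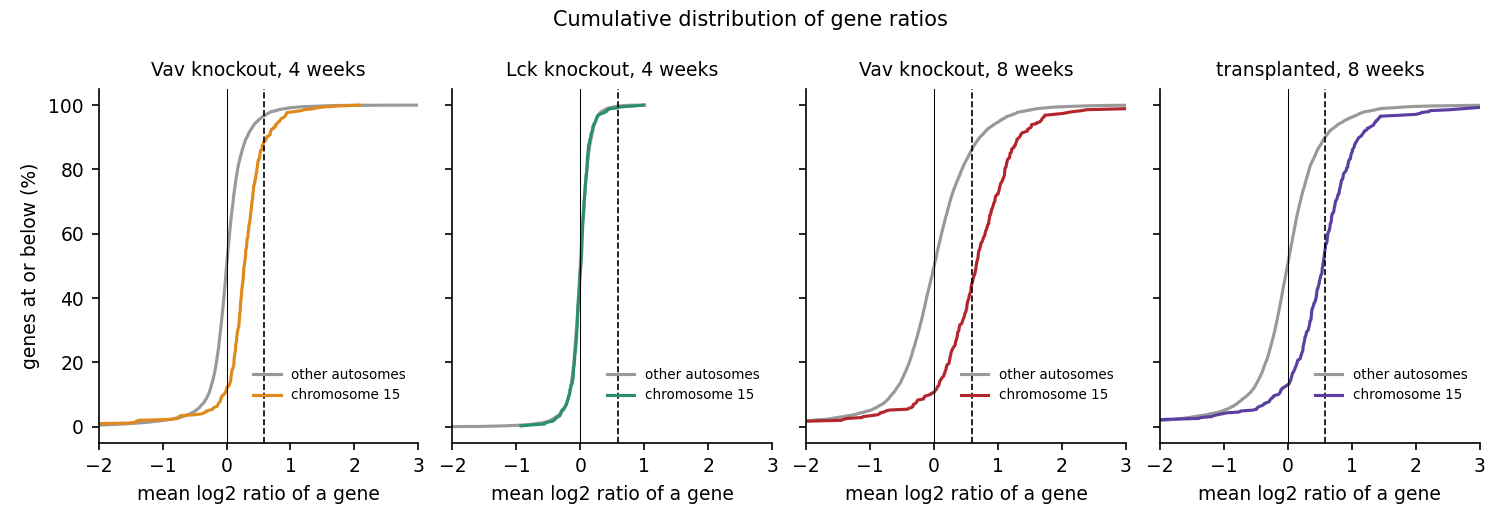
Share of genes at or below each mean log2 ratio, for the 347 members (colour) and 8236 genes of other autosomes (grey), with 1.5-fold as a dashed line. The members' curve is shifted to the right along nearly its whole length in the 3 Vav panels and lies on the grey curve in the Lck panel.

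Position was examined in 10 successive stretches of 34 or 35 members. At 4 weeks the stretch level ran from 0.19 to 0.38 in the Vav knockout, at 8 weeks from 0.52 to 0.95, in the transplanted libraries from 0.41 to 0.69 and in the Lck knockout from -0.02 to 0.05. On the other autosomes, 227 successive stretches of 35 genes ran from -0.11 to 0.12 in the Vav knockout at 4 weeks, from -0.31 to 0.29 at 8 weeks and from -0.31 to 0.28 in the transplanted libraries. Each of the 10 stretches of chromosome 15 was thus above the highest of these in all 3 Vav groups. Shorter windows were less even. In windows of 10 megabases, the 7 members from Basp1 to Trio (25363277 to 28025848) had a level of -0.23 in the Vav knockout at 4 weeks (-0.51 to -0.01 in single libraries), -0.76 at 8 weeks (-1.14 to -0.10), -0.05 in the transplanted group (-1.20 to 0.47) and -0.14 in the Lck knockout. This window was below 0 in all 6 Vav knockout libraries. The other 10 windows ran from 0.14 to 0.45, from 0.34 to 1.20 and from 0.25 to 0.90 in the 3 Vav groups. Elsewhere, 1167 runs of 7 genes ran from -0.78 to 0.49, from -1.54 to 0.91 and from -1.31 to 0.73. The second stretch, from Dap to Med30 (position 31224314 to 52730564), was the highest in each of the 3 groups. Its members include Eif3e and Eif3h of the translation initiation complex eIF3 and Pabpc1, the poly(A)-binding protein. The first stretch, Selenop to Trio (3268547 to 28025848), was at 0.19 in the Vav knockout at 4 weeks and 0.59 at 8 weeks. The third, Ext1 to Ptp4a3 (53064038 to 73758766), which spans the locus of Myc, was at 0.19 and 0.70. The ninth, Pfkm to Letmd1, was lowest at 8 weeks, at 0.52, and in the transplanted group, at 0.41. The differences between stretches exceeded the spread between libraries in part: in the Vav knockout at 4 weeks the second stretch had 0.33 to 0.40 and the third 0.18 to 0.20, whereas in the transplanted libraries the second had 0.45 to 0.82 and the third 0.40 to 0.70, which overlap.

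**Figure D3:**
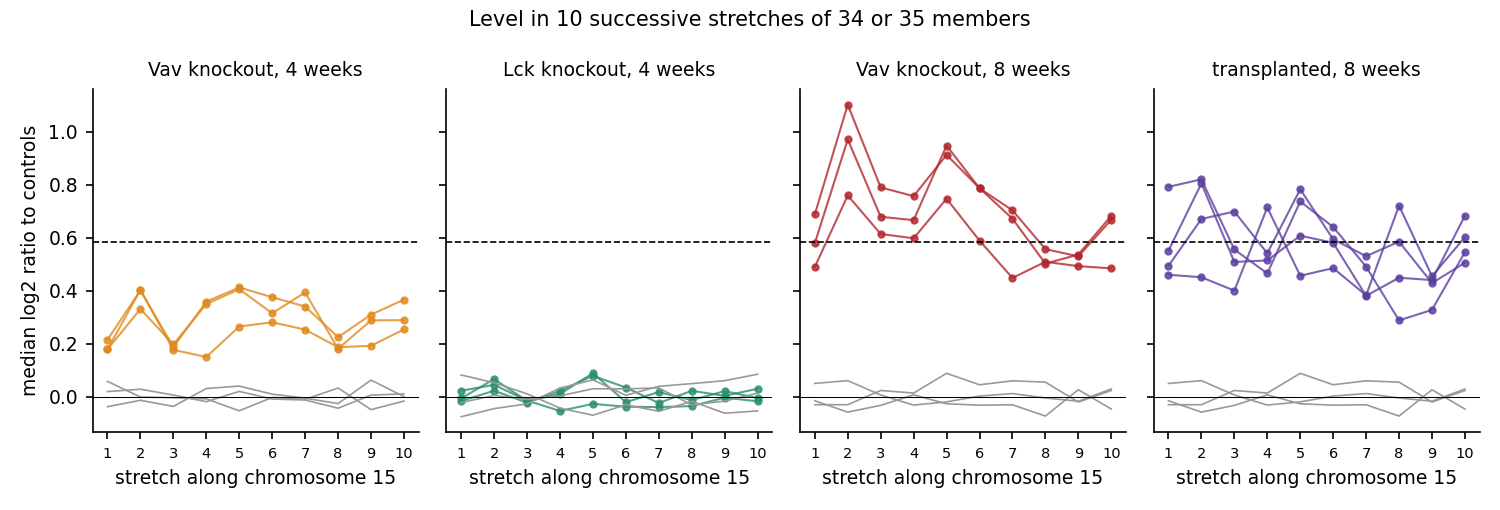
Median log2 ratio of the members in 10 successive stretches along chromosome 15, 1 coloured line per knockout or transplanted library and grey lines for the controls of the same table; the dashed line is 1.5-fold. No stretch of a Vav library falls to the control lines, and the second stretch is the highest on average in the 3 Vav groups.

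Below 100 FPKM the level differed little with the abundance of the genes. Members at 1 to 5 FPKM in controls (107 genes), 5 to 20 FPKM (131 genes) and 20 to 100 FPKM (95 genes) had 4-week Vav knockout levels of 0.26, 0.29 and 0.29, levels of 0.69, 0.64 and 0.64 at 8 weeks, and of 0.56, 0.56 and 0.51 when transplanted. Other-autosome genes of these classes had 0.011, -0.005 and -0.003 at 4 weeks. At 8 weeks they had 0.09, -0.03 and -0.05, and in the transplanted group 0.10, -0.03 and -0.06. Members at 1 to 5 FPKM thus lay least far above other genes of their class. The 14 members at 100 FPKM or more had 0.35, 0.91 and 0.63, whereas the 161 other-autosome genes of that class had -0.05, -0.18 and -0.27. Among these 14 are Eif3h, Eif3e, Eif4b, Rad21, Rac2, Lgals1, Hnrnpa1 and Tuba1b, and Endou, Ano6 and Dazap2 outside any list.

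Gene by gene, limma on log2(FPKM + 1) over all genes of a table placed 125 of 345 tested members above controls, and 10 below, in the Vav knockout at 4 weeks (adjusted p under 0.05), beside 7.63% of all tested genes higher and 6.08% lower. At 8 weeks 128 of 346 Vav knockout members were called higher, and 1 lower (all genes: 4.65% and 4.45%), and 97 higher and 2 lower in the transplanted libraries (4.59% and 4.6%). With LckCre 1 of 346 was higher and 2 were lower (0.201% and 0.804%). Of the members called lower, Itga5, Odf3b and Trio at 4 weeks, and Itga5 in both 8-week comparisons, were below 1 FPKM in every knockout or transplanted library compared, and Rad1, called higher in the Vav knockout at 8 weeks, was below 1 FPKM in all its controls. Itga5, Odf3b and Trio in these comparisons thus passed the filter on low values through the controls alone and had to lie lower. Rad1 at 8 weeks passed it through knockout or transplanted libraries alone. The rule rests on these contrasts, so the counts are given without a reading. Both 8-week comparisons used the same control libraries. The count of higher members at 4 weeks was 68, 52 and 48 without control replicates 1, 2 and 3 and 80 without knockout replicate 3. At 8 weeks it was 28, 23 and 29 without control replicates 1, 2 and 3, 48, 76 and 47 without knockout replicates 1, 2 and 3, and 212 without transplanted replicate 3. In the transplanted comparison it was 25, 23 and 29 without those controls and 181 without transplanted replicate 3. The counts of lower members ran from 4 to 11 at 4 weeks (4, 4 and 5 without control replicates 1, 2 and 3) when single libraries were left out. At 8 weeks they were 0 without any 1 of the controls and 2, 4 and 4 without transplanted replicates 2, 3 and 4. In the transplanted comparison they were 0 without any 1 of the controls, 1, 4, 6 and 5 without transplanted replicates 1 to 4, and 1 without Vav knockout replicate 1 or 3.

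Between transplanted and untransplanted Vav knockouts at 8 weeks limma called 0 of 346 members in either direction (0.0% of all genes), while 21 members, and 681 of 11632 genes, had an unadjusted p under 0.05. The median log2 change over members was -0.11, and over all genes -0.01. Without transplanted replicate 2, 1 member was called lower.

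To describe which genes stood apart from their own chromosome, each library's chromosome 15 genes were divided by its level and the fit was repeated. Then 25 members were called above and 25 below in the Vav knockout at 4 weeks (all genes: 6.3% and 6.04%), 9 and 11 at 8 weeks (3.18% and 4.16%), 13 and 13 in the transplanted libraries (3.57% and 4.39%) and 1 and 2 in the Lck knockout (0.201% and 0.831%). The 25, 9 and 13 above were all among the members called higher before the division. The members called below included Itga5, Odf3b and Trio at 4 weeks and Itga5 in both 8-week groups. These again passed the filter on low values through the controls alone and had to lie lower. Of the tested members, 7.29% and 7.29%, 2.6% and 3.18%, and 3.76% and 3.76% were called in the 3 Vav groups. These shares are near those of all genes, so the counts are given without a reading. The p-values of this fit are called chromosome-centred below. The fit was run with all libraries only, so its counts and calls were not checked with single libraries left out.

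Cyth4 (ENSMUSG00000018008, mm10 chromosome 15, 78597047 to 78622019, plus strand) encodes a cytohesin of blood cells, an exchange factor for ARF GTPases. It was at 2.39, 2.09 and 2.32 FPKM in the Vav controls at 4 weeks and at 6.76, 19.1 and 7.20 in the knockouts. Its levels at 8 weeks were 3.53, 3.34 and 3.37 FPKM in controls, 30.4, 37.9 and 31.4 in Vav knockouts, and 24.4, 33.7, 29.9 and 44.4 in transplanted libraries. In the Lck table the controls had 2.40, 2.59 and 2.37 FPKM and the knockouts 4.55, 5.42 and 5.12. No knockout library overlapped the controls of its table. The mean ratio was 4.22-fold, 9.83-fold, 9.60-fold and 1.98-fold in the 4 comparisons in this order, and limma's adjusted p was 0.0244, 7.07e-05, 4.29e-05 and 0.0135. The call at 4 weeks in the Vav knockout was lost without control replicate 1, 2 or 3 (adjusted p = 0.0881, 0.0884 and 0.0809, limma) and with no filter on low values (0.0709). It was the single member called higher in the Lck knockout, a call that was lost in 5 of the 6 fits with a library left out (all but the one without Lck knockout replicate 1).

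Celsr1 and Prickle1 encode core members of the planar cell polarity pathway, which orients cells within a sheet. Celsr1 (85898929 to 86033777, minus strand) was at 3.49 to 3.63 FPKM in the Vav controls at 4 weeks and at 8.45, 14.5 and 9.04 in the knockouts. At 8 weeks it was at 1.92 to 2.31 FPKM in controls, at 29.4, 16.4 and 31.8 in the Vav knockouts and at 19.4, 17.6, 13.7 and 23.7 in the transplanted libraries. Prickle1 (93499114 to 93595891, minus strand) rose from 2.41 to 3.07 FPKM in the Vav controls at 4 weeks to 6.31, 6.30 and 4.4, and from 1.41 to 1.6 FPKM at 8 weeks to 16.6, 13.2 and 16.6 in the Vav knockouts and 8.54 to 19.1 in the transplanted libraries. Neither overlapped its controls in a Vav group. The call of Prickle1 at 4 weeks was lost without control replicate 2 or 3 (adjusted p = 0.0576 and 0.052, limma). Their mean ratios at 8 weeks were 11.5-fold and 10.03-fold, against a level of 1.58-fold for the chromosome, with chromosome-centred adjusted p from limma of 0.000628 and 0.0013. In the Lck knockout the ratios were 1.29-fold and 1.36-fold and did not pass the test (adjusted p = 0.19 and 0.237).

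Among the other members farthest above the level were Prr13, Lynx1, a GPI-anchored modulator of acetylcholine receptors, and Cacnb3, a beta subunit of voltage-gated calcium channels. Cacnb3 was at 8.30, 9.42 and 9.77 FPKM in the Vav controls at 4 weeks and at 21.8, 19.3 and 20.5 in the knockouts (adjusted p = 0.00138, limma). At 8 weeks it was at the level of the chromosome in the Vav knockout, with a ratio of 1.57-fold, and scattered between 5.74 and 34.4 FPKM in the transplanted libraries. Pced1b was 3.36-fold at 4 weeks, and at 8 weeks 5.22-fold (adjusted p = 0.0589, limma) with knockouts at 9.83, 6.30 and 15.6 FPKM against 1.47 to 2.18. St3gal1, a sialyltransferase of O-glycans, was at 7.31 to 8.55 FPKM in the 8-week controls, at 25, 25.2 and 23.0 in the Vav knockouts and at 34.7, 54.3, 22.3 and 28.2 in the transplanted libraries (4.26-fold, adjusted p = 0.00199, limma). Gramd4 was 3.28-fold in the Vav knockout at 8 weeks and 4.00-fold in the transplanted libraries, both past the test also when chromosome-centred (adjusted p = 0.0156 and 0.00168, limma).

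The members below the level were led by Itga5 (ENSMUSG00000000555, mm10 chromosome 15, 103344286 to 103366763, minus strand), the alpha chain of the fibronectin receptor. It was at 1.64, 1.4 and 1.90 FPKM in the Vav controls at 4 weeks and at 0.0140, 0.0147 and 0.0512 in the knockouts. Its levels at 8 weeks were 2.02, 1.64 and 1.74 FPKM in controls, 0.0119, 0.0795 and 0 in Vav knockouts, and 0, 0, 0.0897 and 0 in transplanted libraries. All 10 Vav libraries lay below every control. With LckCre it was at 1.44, 1.42 and 1.88 FPKM against 2.16, 1.64 and 1.99, which overlap. The log2 changes in limma were -1.36, -1.44 and -1.45 in the 3 Vav comparisons, on a scale that understates changes of low genes. Since it was tested through its controls alone, and drops out of the test when any 1 of them is left out, no p is given.

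Laptm4b, which encodes a membrane protein of lysosomes, was at 6.75, 6.55 and 6.12 FPKM in the Vav controls at 4 weeks and fell to 0.811, 1.51 and 1.20 (adjusted p = 0.00124, limma). At 8 weeks its libraries parted: against 7.0 to 8.41 FPKM in controls, Vav knockout replicates 1 and 3 had 0.248 and 0.532 and replicate 2 had 27.4, while transplanted replicate 2 had 74.6 and the other transplanted libraries 0.502, 0.207 and 0.0326. Odf3b showed the same split, with 16.7 and 15 FPKM in replicate 2 of the Vav knockout and of the transplanted group, against 0 to 1.05 in the others and 3.73 to 4.71 in controls. Neither gene was called at 8 weeks. Basp1, Zfp385a and Trio, the last a guanine nucleotide exchange factor for small GTPases, had ratios below 1 in every Vav knockout library of both ages. Basp1 and Zfp385a fell past the test at 4 weeks (adjusted p = 0.0112 and 0.0058, limma), Basp1 not without control replicate 1 (0.0543). Zhx2, a repressor with zinc fingers and homeoboxes, fell at 4 weeks from 5.07 to 6.64 FPKM to 3.88, 3.3 and 3.09 (adjusted p = 0.0165) and in the transplanted libraries from 4.30 to 5.55 FPKM to 1.49, 0.411, 0.310 and 3.08 (adjusted p = 0.0403). The first call was lost without control replicate 2 or knockout replicate 3 (0.0641 and 0.0584, limma), and the second without any 1 of the controls, Vav knockout replicate 1 or 3, or transplanted replicate 1 or 2 (0.0562 to 0.155). In the Vav knockout at 8 weeks it had 1.07, 2.91 and 1.58 FPKM (adjusted p = 0.113, limma). Selenop, a secreted selenoprotein, was at 15.9 to 21.2 FPKM in the Vav knockout at 4 weeks against 18.9 to 22.2, and at 8 weeks ranged from 0.570 to 15 in the Vav knockout and from 0.0522 to 23.1 in the transplanted libraries, with no call.

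H1f0, a linker histone of slowly dividing cells, was at 66.2, 44.4 and 40.0 FPKM in the Vav controls at 4 weeks and fell to 20.9, 21 and 15.8 (adjusted p = 0.0101, limma). At 8 weeks it was at 23.8, 26.4 and 43.0 FPKM in controls, at 113, 227 and 128 in the Vav knockouts and at 5.06, 195, 10.9 and 9.17 in the transplanted libraries. All Vav knockouts at 8 weeks lay above the controls, but the change did not pass the test (adjusted p = 0.194, limma). Elfn2 was at 8.95 to 22.3 FPKM in the Vav knockouts at 8 weeks against 0.971 to 1.69, and from 0.719 to 89.1 in the transplanted libraries (adjusted p = 0.148 and 0.197, limma).

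Across the members, the mean log2 ratios at 4 and 8 weeks in the Vav knockout had a Pearson correlation of 0.75 and a Spearman correlation of 0.77 over 347 genes, and 0.75 and 0.71 over 8236 genes of other autosomes. These are across genes, which share libraries and are not independent. The ratio was higher at 8 weeks for 289 members (83.3%), with a median difference of 0.37, against 50.1% and 0.00 for other autosomes.

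**Figure D4:**
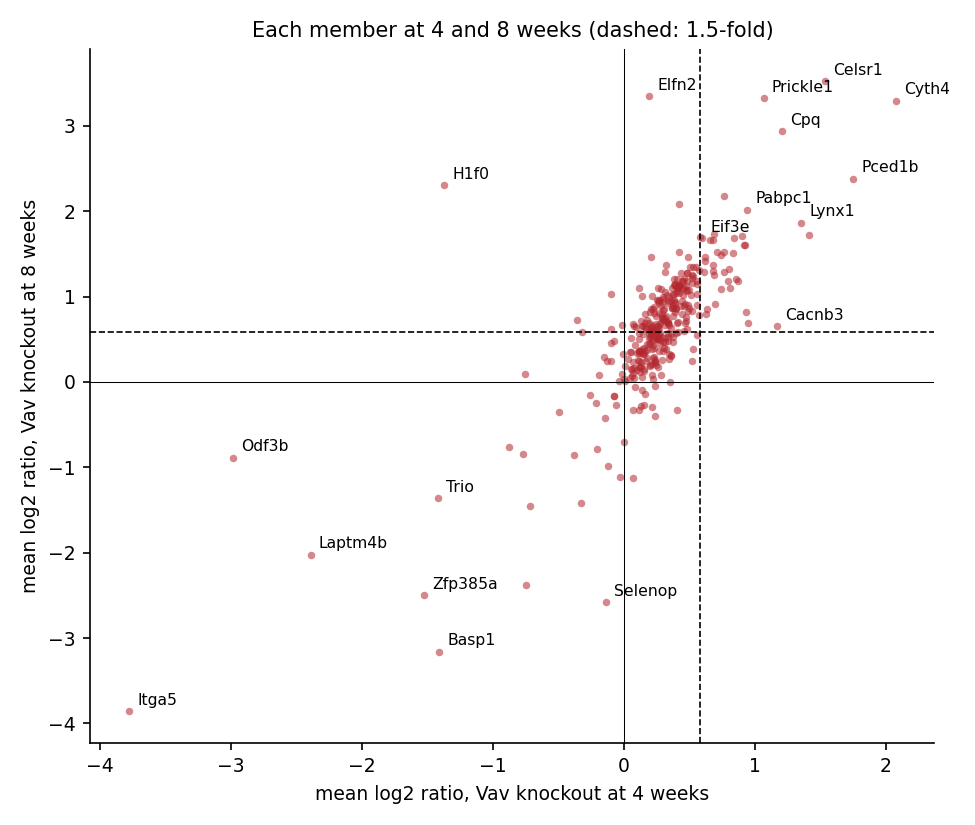
Mean log2 ratio of each of the 347 members in the Vav knockout at 4 weeks (x axis) and 8 weeks (y axis), with 1.5-fold as dashed lines. Most points lie in a cloud above 0 on both axes, with Cyth4, Celsr1 and Prickle1 beyond it, Itga5, Laptm4b and Basp1 below it, and H1f0 low at 4 weeks and high at 8 weeks.

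Members were grouped by function in 12 lists, set out with earlier results of these data known. Over all members the median ratio was 0.28 in the Vav knockout at 4 weeks, 0.66 at 8 weeks, 0.54 in the transplanted group and 0.01 in the Lck knockout. No member of a list was called lower in any of these comparisons. The counts of list members called higher below stand beside 36.2%, 37.0% and 28.0% of all tested members and 7.63%, 4.65% and 4.59% of all genes in the Vav knockout at 4 and 8 weeks and in the transplanted group.

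The 7 translation factors had median ratios of 0.52, 1.25 and 0.95 in the Vav knockout at 4 and 8 weeks and in the transplanted group, and 0.11 in the Lck knockout. All 7 were called higher in the Vav knockout at both ages and 5 in the transplanted group, and all 7 lay above the chromosome's level in each. Pabpc1, which binds the tails of messenger RNAs, was at 76.4 to 89.0 FPKM in the Vav controls at 4 weeks and 156 to 165 in the knockouts, and at 75.1 to 84.3 and 248 to 381 at 8 weeks. Eif3e, a subunit of eIF3, was at 136, 146 and 140.4 FPKM in controls and 201, 227 and 202 in knockouts at 4 weeks. At 8 weeks Eif3e had 103 to 123 FPKM in controls, 335 to 389 in Vav knockouts, and 375, 301, 179.9 and 257 in the transplanted libraries. In Pabpc1, Eif3e, Eif3l and Eif3d transplanted replicate 3 had the lowest value of its group. The 6 ribosome assembly genes had medians of 0.47, 0.96 and 0.82, with 4 called higher in each group; Brix1 was at 10.9 to 12.1 FPKM in controls and 16.1 to 17.3 in knockouts at 4 weeks, and at 9.54 to 11.4 and 24.8 to 26.4 at 8 weeks.

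The 8 genes of DNA replication and repair had medians of 0.37, 1.19 and 0.72, with 4, 5 and 2 called higher, the last near the share of all members. The 5 include Rad1, which was below 1 FPKM in all its controls and passed the filter on low values without them. Xrcc6, which encodes Ku70 of end joining, was at 41.1 to 44.7 FPKM in controls and 64.9, 65.2 and 80.6 in knockouts at 4 weeks (adjusted p = 0.00684, limma), and at 40.6 to 46.1 and 134, 119 and 100.3 at 8 weeks. Its transplanted libraries had 37.7 to 109.7 FPKM and did not pass the test. The 9 mitochondrial proteins had medians of 0.40, 0.87 and 0.65, with 8, 6 and 1 called higher. Among them Tspo of the outer membrane was at 76.5 to 78.2 FPKM in controls and 109 to 118 in knockouts at 4 weeks, and at 69.3 to 83.8 in the transplanted libraries against 69.1 to 78.5. The 11 genes of transcription had medians of 0.36, 0.83 and 0.72, with 8, 6 and 6 called higher, and Atf4 of the stress response was higher in all 3 Vav comparisons (adjusted p = 0.0316, 0.0342 and 0.016, limma). Its calls in the Vav knockout were lost without any 1 of the controls at either age (0.0887 to 0.154), without knockout replicate 1 or 3 at 4 weeks (0.0576 and 0.0908) and without any 1 of the knockouts at 8 weeks (0.0928 to 0.118). The transplanted call of Atf4 was not examined with single libraries left out.

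The 18 genes of leukocyte signalling and the cytoskeleton had medians of 0.35, 0.58 and 0.58, with 8, 9 and 7 called higher, besides Cyth4 in the Lck knockout. Rac2, a small GTPase of blood cells, was at 209.9 to 235 FPKM in controls and 275 to 285 in knockouts at 4 weeks, and at 212 to 214 and 298 to 381 at 8 weeks. Lgals1, encoding galectin-1, had 241 to 285 FPKM in controls and 423 to 553 in knockouts at 4 weeks (adjusted p = 0.0101, limma). Grap2, an adaptor of T cell receptor signalling, stayed at 113 to 128 FPKM in knockouts against 110.1 to 112 at 4 weeks, with no call in any group. The 10 RNA processing genes had medians of 0.30, 0.59 and 0.60, with 5, 4 and 5 called higher, among them Hnrnpa1 in all 3 Vav comparisons, although its Vav knockout calls were lost without any 1 of the controls at either age (adjusted p = 0.0798 to 0.146, limma), without knockout replicate 2 or 3 at 4 weeks (0.0528 and 0.109) and without any 1 of the knockouts at 8 weeks (0.056 to 0.0774). The transplanted call of Hnrnpa1 was not examined with single libraries left out. The 12 genes of metabolism and transport had medians of 0.24, 0.70 and 0.53, with 3, 7 and 5 called higher. Slc38a2, an amino acid transporter among the most abundant members of that list, had mean log2 ratios of 0.08 and 0.05 at 4 and 8 weeks.

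Lower medians were found for the 16 cohesin, chromatin and histone regulators, at 0.20, 0.42 and 0.33, with 4, 1 and 0 called higher and 5, 4 and 4 above the chromosome's level. Rad21 and Nipbl, a ring subunit and the loader of cohesin, were at 192 to 213 and 77.0 to 82.3 FPKM in knockouts at 4 weeks against 179 to 187 and 71.9 to 78.1 in controls, and neither was called at either age. Phf5a, counted in this list by its symbol, was called higher at 4 weeks, with 62.6 to 73.0 FPKM against 48.1 to 53.9. That call was lost without any 1 of the controls (adjusted p = 0.099 to 0.112, limma) or knockout replicate 3 (0.0843). The 8 ubiquitin pathway genes had medians of 0.20, 0.57 and 0.52, with 3, 3 and 2 called higher. The 13 genes of mitosis and division had medians of 0.34, 0.59 and 0.23, with 4, 1 and 1 called higher. They include the near-identical tubulins Tuba1a, Tuba1b and Tuba1c, whose reads may be divided uncertainly, and Tuba1b and Tuba1c were at 41.0 and 11.5 FPKM in transplanted replicate 3 against 239 to 300.1 and 57.6 to 73.3 in the other transplanted libraries. Rictor, the single member of the list of TORC regulators, had ratios of 0.24, 0.23 and 0.40 and was not called. Whether one list differs from another was not tested.

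**Figure D5:**
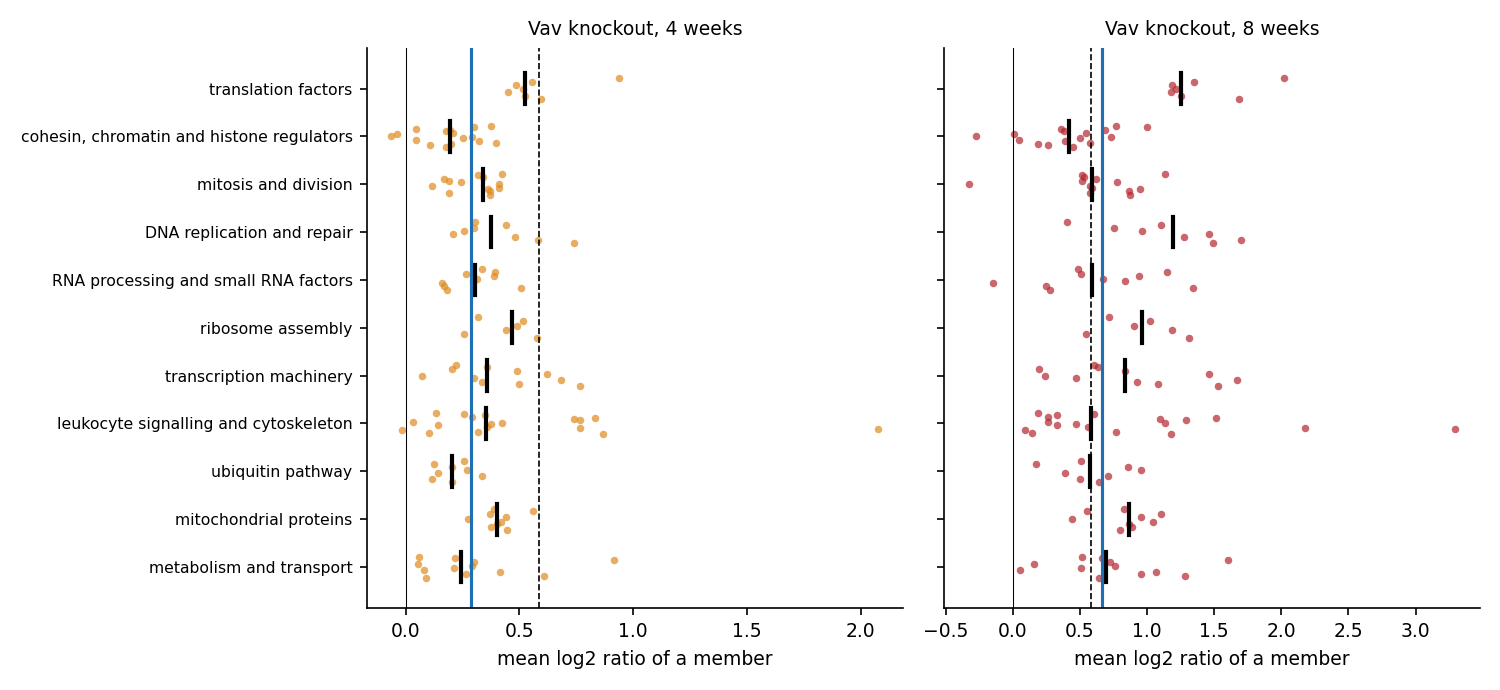
Mean log2 ratio of each member (points) of the 11 functional lists with more than 1 member, in the Vav knockout at 4 and 8 weeks, with black bars for the list medians, a blue line for the chromosome's level and a dashed line for 1.5-fold. All translation factors lie to the right of the blue line, and most cohesin, chromatin and histone regulators lie to its left.

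In the Lck knockout, where the level lay within the range of the controls, Mtss1, which shapes membranes and actin, fell from 56.5 to 63.2 FPKM to 41.4 to 42.7 (adjusted p = 0.0173, limma), and Tbc1d22a fell from 19.3 to 20.6 to 14.6 to 15.7 (adjusted p = 0.025). In fits with a single library left out, 0 or 1 of these 2 calls remained; without Lck knockout replicate 1 it was 1, and without any other library 0. In the Vav knockout at 4 weeks Mtss1 and Tbc1d22a lay below the chromosome's level by 0.50 and 0.36 log2 units (chromosome-centred adjusted p = 0.043 and 0.0218, limma).

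Of the genes left out by name, Myc was at 0.937 to 1.09 FPKM in the Vav controls at 4 weeks and 3.56, 6.49 and 4.34 in the knockouts, and at 0.734 to 0.945 in the 8-week controls, 13.7 to 16.5 in the Vav knockouts and 23.0, 21.3, 1.47 and 9.34 in the transplanted libraries. Mean log2 ratios in the Vav knockout at 4 and 8 weeks were 2.43 and 3.70 for Il7r, 2.10 and 1.85 for Il2rb, 2.93 and 2.56 for Itgb7, 0.54 and 1.23 for Bop1 and 0.12 and 0.27 for Nr4a1.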

How the data were processed

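RNeasy mini kits and the NuGEN Ovation Ultralow library system were used on sorted thymocytes, per the labels' protocols. Values per gene are FPKM, as the authors deposited them in 3 tables, for Vav at 4 weeks, for Lck at 4 weeks and for all libraries at 8 weeks. Build mm10 and the tools Trimmomatic 0.33, STAR, HTSeq 0.6.1 and DESeq2 are named, without a role, per the submitters' processing notes. Gene lengths, the annotation behind the values and the use of strand are not given in the sources used here, so overlapping and antisense genes cannot be told apart.

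Of 43430 genes per table, 42462 were matched to GENCODE M21. Sample columns were matched by name and 0 went unused. There were 0 identical pairs among the 22 libraries. Only 51.7% to 60.0% of the lowest values came out as whole reads within a tolerance of 0.03, so no count model was used. The test was limma 3.58.1 in R 4.3.3 with a mean-variance trend, on log2(FPKM + 1), 1 fit per table, for genes with 1 FPKM or more in at least 3 libraries. Calls had a Benjamini-Hochberg adjusted p under 0.05 over all tested genes. Ndrg1 and Gm10337 were not tested in the Vav table at 4 weeks, Ndrg1 not in the Lck table and Ccdc152 not at 8 weeks. Ratios and levels were computed in Python 3.11.15, and both steps were tested on simulated data. A control library was compared with the mean of the other controls.

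Members, lists and tests were chosen with earlier results of these data known. Named genes are the 8 highest and 8 lowest against the chromosome's level in each group with all libraries on one side of it, the genes next to the thresholds, the 3 most abundant of each list, the genes left out by name, and up to 8 each way still called after centring. A marker of double-positive cells, left out of their summed level, and a member named by this rule are not reported here. Eif3l, Eif3d, the genes at 100 FPKM or more and those left out by family were chosen after their values were seen. Alternatives covered the pseudocount, the filter, scaling, the replicate block, robust variances and single libraries left out.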

Additional observations from a re-analysis of the deposited data

Results flagged for a closer look

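In the group of 4 transplanted libraries, 1 library stood apart from the others by Dixon's criterion, which chance meets in about 1 in 20 groups, for 5 of 23 values tested (22 named members and the level of chromosome 15). The log2 ratio of Pced1b was 0.69 in replicate 2, below the other 3, and that of Gramd4 was 2.39 in replicate 1, above the other 3. Itga5 was at -3.21 in replicate 3, above the others, although all 4 libraries were at or below 0.0897 FPKM. Tuba1a was at 0.16 and Tbc1d22a at 0.16 in replicate 4, above the other 3 libraries in each case.

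H1f0 had a mean log2 ratio of 2.31 in the Vav knockout at 8 weeks, with all 3 libraries above 0, and of -1.37 at 4 weeks, with all 3 below 0. Tuba1a had -0.33 at 8 weeks with all 3 libraries below 0, and 0.41 at 4 weeks with all 3 above 0. The difference between the ages was not tested, since the ages were compared with different controls.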

How the results depend on the processing

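No called result changed direction under an alternative run. Values near 0 that were not called changed sign in 2 results: the level of chromosome 15 in the Lck knockout, at -0.0021 without Lck knockout replicate 1, and Slc38a2 in the Vav knockout at 8 weeks, with a log2 change of 0.0013 and as low as -0.10. With chromosome 15 centred on its own median, the members called higher and lower were 25 and 25 in the Vav knockout at 4 weeks, 9 and 11 at 8 weeks, and 13 and 13 in the transplanted group, which follows from removing the level. With the replicate block they were 81 higher at 4 weeks, 66 higher and 2 lower at 8 weeks, 55 higher in the transplanted group, and 0 higher and 0 lower in the Lck knockout. Deviations of same-numbered libraries had correlations from -0.109 to 0.181. These low values show no pairing by number, but in groups this small they cannot settle whether libraries were paired. With a mean of 5 FPKM or more required, which leaves fewer genes, the lower calls were 1 at 4 weeks, 0 at 8 weeks and 0 in the transplanted group, and the higher calls in the Lck knockout 0. Lower calls in the transplanted group were 1 with no filter on low values and 1 with a pseudocount of 0.1; the cause was not tested.

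Leaving out single libraries gave 48 to 166 members higher and 4 to 11 lower in the Vav knockout at 4 weeks, 23 to 212 and 0 to 4 at 8 weeks, 23 to 181 and 0 to 6 in the transplanted group, 0 to 1 and 0 to 1 in the Lck knockout, and 0 to 1 lower between the transplanted and untransplanted groups. The level of chromosome 15 then ran from 0.27 to 0.31, from 0.63 to 0.71, from 0.53 to 0.57 and from -0.00 to 0.01 in the first 4 of these.

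In the transplanted group the level was 0.49 with a pseudocount of 1, 0.59 over members at 5 FPKM or more, 0.53 as a mean over members and 0.50 when not centred on other autosomes. In the Lck knockout it was 0.0204 when not centred; the other levels moved by less than the spread between libraries. For single genes, 1934 of 2191 alternatives over 149 results kept their side of the threshold, 211 lost a call and 46 gained one. Depth was lowest in the Lck table, at 5.47 M inferred reads in knockout replicate 2.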

Other observations

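Other chromosomes stood apart by 0.1 log2 units or more in single libraries. Chromosome 8, over 510 genes, had a median log2 ratio of 0.50 in transplanted replicate 1 (1.41-fold), where chromosome 15 was at 0.56. Chromosome 10, over 439 genes, was at 0.43 in Vav knockout replicate 3 at 8 weeks (1.35-fold), where chromosome 15 was at 0.68. In the Vav knockout at 4 weeks, chromosomes 2 and 4 were at 0.15 and 0.14 in replicate 3, and chromosomes 10 and 13 at 0.12 and 0.14 in replicate 2. Chromosome 18 was at 0.14 in the latter and at 0.17 in Vav knockout replicate 3 at 8 weeks, and chromosome 1 at -0.13 in transplanted replicate 1. No other chromosome passed 0.1 in more than 1 library of a group. Below that cut, chromosome 18 was at 0.094 and 0.095 in Vav knockout replicates 1 and 2 at 8 weeks. In the transplanted libraries it ran from 0.02 to 0.09. Copy number was not measured.

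The gene families left out by symbol were measured too. In the Vav knockout at 4 and 8 weeks the median log2 ratios were 0.57 and 1.62 for 4 Rpl genes (Rpl3, Rpl8, Rpl30 and Rpl37), 0.50 and 1.11 for 2 Nduf genes, 0.34 and 0.72 for 2 Cox genes and 0.56 and 1.6 for Atp5g2. Ly6d, a surface protein of early lymphoid cells, was at 68.4 to 89.0 FPKM in the Vav controls at 4 weeks and 451 to 549 in the knockouts, and at 92.2 to 118 and 965 to 1978 at 8 weeks. Ly6e had mean log2 ratios of 0.12 and 0.76. Ly6k had 0.55 and -0.25, and its Vav knockout libraries ranged from 4.54 to 36.3 FPKM at 4 weeks and from 0.0757 to 65.9 at 8 weeks.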
